A study of Homo sapiens with 27 samples.

Results

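In SHP77 cells, an established line from a human small cell lung cancer, 2948 of 16750 genes lay on the same side of the control in every library that had received an siRNA against SOX2 or NKX2-1. These common genes were chosen by their measured values: a gene was kept when its normalized count in all 8 targeting libraries was above, or in all 8 was below, its count in all 3 control libraries. The rule kept 1376 genes that were higher in all 8 (8.21% of the 16750 genes whose mean normalized count reached 10) and 1572 that were lower (9.39%). A further 86 higher and 181 lower genes met the rule with a mean under 10 and are only counted here. The difference of a common gene from the control is therefore a description and carries no test. An effect shared by both knockdowns and an effect of the control siRNA cannot be told apart in this design, because every difference is taken from the same 3 control libraries. In bulk RNA, fewer cells with a transcript and less of it per cell cannot be told apart either.

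SOX2 and NKX2-1 are transcription factors that mark the airway and neuroendocrine lineage of many small cell lung cancers. A short interfering RNA (siRNA) guides the silencing complex to a matching mRNA. It can also act on mRNAs that pair with its seed, and double-stranded RNA can be read by innate sensors such as MDA5 (IFIH1) and the oligoadenylate synthetases, so that studies of gene knockdown usually set several siRNAs against each target beside a control siRNA.

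The cells had been transfected with a lipid reagent 72 hours before harvest and poly(A) RNA was sequenced. The groups were si-control (3 libraries), SOX2 siRNA 1, SOX2 siRNA 2, NKX2-1 siRNA 1 and NKX2-1 siRNA 2 (2 libraries each), all in SHP77 cells, with no untransfected group analysed here. A separate table held total RNA of SHP77 cells with lentiviral shRNAs, selected with puromycin at 3 µg/ml: shGFP, circRMST shRNA 1 and circRMST shRNA 2, 2 libraries each. circRMST is a circular RNA of the RMST locus. Replicates were described as biological, with nothing said on separate cultures, so the tests measure the spread between these libraries.

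The siRNA libraries held 15486858 to 50098747 recovered reads. The targeted genes are not common genes: SOX2 was at 1084 to 1191 normalized counts in the controls, 389 to 466 with its own siRNAs and 2098 to 2285 with the NKX2-1 siRNAs, and NKX2-1 was at 2145 to 2357, 796 to 1070 with its own and 2446 to 2764 with the SOX2 siRNAs. The neuroendocrine markers CHGA (9543 to 9755 in the controls) and DLL3 were present in every library, whereas NEUROD1 and YAP1 stayed at or under 2.25 normalized counts. Of 5 fibroblast markers with a mean of at least 10, PDGFRA was among the higher and FAP among the lower genes. The summed level of the 5 was 532.9 to 600.4 in controls and 396.4 to 618.7 in targeting libraries. LUM was at 59.9 to 93.8 in controls and 54.7 to 254 in targeting libraries, and COL1A1 at 19.5 to 23.7 and 2.83 to 36.2. COL1A2 and PDGFRB were at most 1.42 and DCN at most 7.55. Of 3 blood or endothelial markers with a mean of at least 10 none was a common gene (sums 377.7 to 395.6 and 92.4 to 499.8). PECAM1 was at 327 to 341 in controls and 64.0 to 414 in targeting libraries, and KDR was at 0 in every library. The part of these cell types in the results was not tested. Mitochondrially encoded transcripts took 9.95% to 10.3% of the reads in the controls and 6.90% to 8.96% in the targeting libraries.

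Most common genes differed from the control by a modest amount, and the lower genes by more than the higher ones. On the log2(normalized count + 1) scale, on which differences of weakly expressed genes come out too small, the median difference of the higher genes was 0.45 for SOX2 siRNA 1, 0.40 for SOX2 siRNA 2, 0.33 for NKX2-1 siRNA 1 and 0.30 for NKX2-1 siRNA 2. The medians of the lower genes were -0.62, -0.54, -0.43 and -0.39 in that order, against -0.01 for the mean of the siRNAs over all genes tested. Only 25 higher and 78 lower genes were at least 2-fold from the control with each of the 4 siRNAs. The siRNA nearest the control was NKX2-1 siRNA 2 for 551 higher and 641 lower genes, and SOX2 siRNA 1 for 152 and 180. The same order held over all 16750 genes tested, with 5571 for NKX2-1 siRNA 2 and 2831 for SOX2 siRNA 1.

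**Figure D1:**
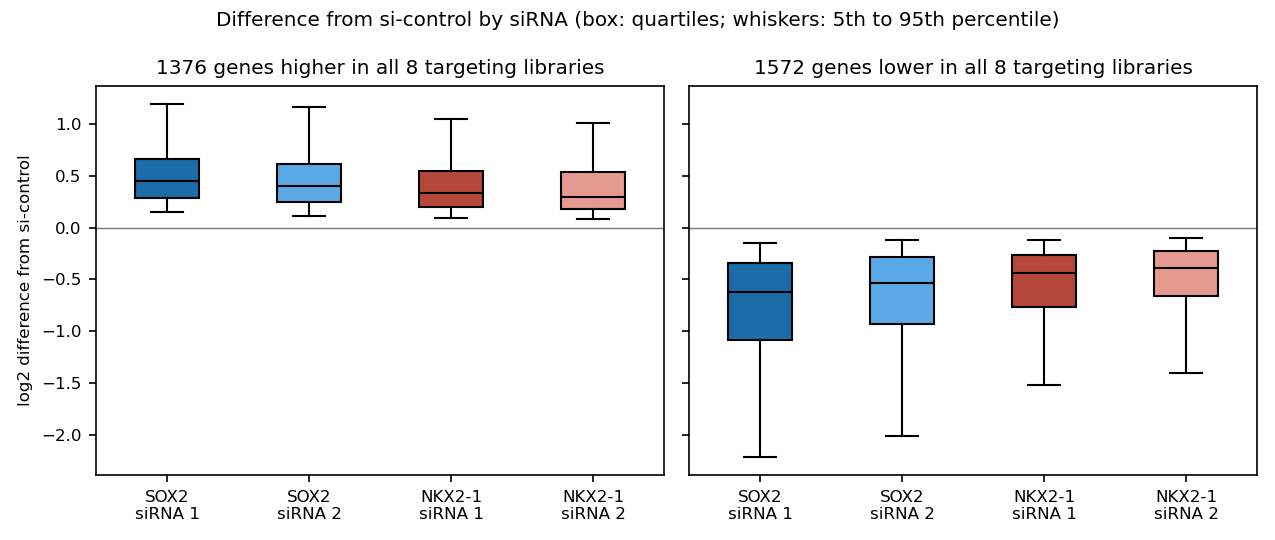
Log2 difference from si-control (vertical axis) of the 1376 higher genes (left) and 1572 lower genes (right), for each of the 4 siRNAs (mean of 2 libraries against mean of 3 controls). Boxes give quartiles and whiskers the 5th to 95th percentile; the lower genes reach further from 0, and SOX2 siRNA 1 has the largest median on both sides.

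The higher gene whose weakest siRNA was farthest from the control, at a mean of at least 50, was H3-3A (chr1:226061831-226072019), which encodes the replication-independent histone H3.3. Its normalized counts were 2649, 2546 and 2605 in the controls. They were 6389 and 5995 with SOX2 siRNA 1, 6580 and 6790 with SOX2 siRNA 2, 6331 and 6301 with NKX2-1 siRNA 1, and 6482 and 6548 with NKX2-1 siRNA 2. All 8 targeting libraries thus sat together at 2.47 times the control on average, and no difference between the SOX2 and NKX2-1 siRNAs was detected (log2 difference 0.00, SE 0.03, 95% interval -0.06 to 0.07, limma adjusted p = 0.927). The pseudogene H3P6, whose reads cannot be separated with certainty from those of H3-3A, was 2.35-fold higher in the same libraries.

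Receptor and neuronal genes were among the other leading higher genes. MET, the receptor of hepatocyte growth factor, was at 414, 434 and 441 normalized counts in the controls, 1102 and 1149 with SOX2 siRNA 1, 1184 and 1174 with SOX2 siRNA 2, 1366 and 1250 with NKX2-1 siRNA 1 and 1014 and 987 with NKX2-1 siRNA 2. The targeting libraries did not overlap the controls, and the target again made no detectable difference (0.01, SE 0.05, interval -0.09 to 0.11, adjusted p = 0.867), although NKX2-1 siRNA 1 exceeded siRNA 2 by 0.38 (SE 0.07, adjusted p = 8.41e-05). PDGFRA, a receptor of platelet-derived growth factor, was at 48.7 to 59.9 in the controls and 121 to 244 in the targeting libraries, with the highest counts under SOX2 siRNA 2. CNTNAP2, a neurexin-related adhesion protein of neurons, was 2.39-fold higher, and DPYSL3, a regulator of axon growth, 2.25-fold.

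The remaining leading higher genes had varied roles. CALU (calumenin, a calcium-binding protein of the secretory pathway) was at 2039 to 2078 normalized counts in the controls and 3962 to 5182 in the targeting libraries. WDR1, a cofactor of actin filament disassembly, was 2.13-fold higher, BOD1, a chromosome alignment factor, 2.14-fold, and PPP2R1B, a scaffold subunit of protein phosphatase 2A, 2.26-fold. PPP2R1B was also higher with the SOX2 than with the NKX2-1 siRNAs (log2 difference 0.44, SE 0.04, adjusted p = 2.73e-11), in all 4 libraries against 4. The transcription factor gene MAF (2.60-fold) and the serine protease gene PRSS56 (3.41-fold) rested on control counts of 49.9 to 77.5 and 21.1 to 32.9. NGRN (2.03-fold), CASTOR2 (1.94-fold) and IPCEF1, at 37.4 to 57.8 in the controls and 83.1 to 143 in the targeting libraries, completed the 15 leading higher genes.

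The leading lower gene was TNFSF15 (chr9:114784635-114806039), which encodes TL1A, a cytokine of the tumour necrosis factor family. Its normalized counts were 1353, 1260 and 1336 in the controls, then 85.4 and 83.8 with SOX2 siRNA 1, 120 and 113 with SOX2 siRNA 2, 170 and 167 with NKX2-1 siRNA 1, and 225 and 180 with NKX2-1 siRNA 2. The average difference was 9.66-fold, and the count was lower with the SOX2 than with the NKX2-1 siRNAs in all 4 libraries against 4 (log2 difference -0.89, SE 0.08, adjusted p = 6e-10). An unnamed feature that overlaps TNFSF15 was lower too, and since it is not stated whether counting used strand, reads of overlapping genes cannot be assigned with certainty.

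The other 14 leading lower genes had varied roles. TNFRSF9, the costimulatory receptor 4-1BB, was at 433 to 444 normalized counts in the controls and 63.1 to 135 in the targeting libraries (5.37-fold lower). TREM1, a myeloid activating receptor, was at 182 to 195 and 19.9 to 37.0 (6.49-fold lower). Both sets were far apart, with no overlap. SCEL (sciellin, of the cornified envelope) was 5.34-fold lower, PAEP (glycodelin) 4.26-fold, CEACAM5 (carcinoembryonic antigen) 3.14-fold, and the activity-regulated gene ARC 3.40-fold. ERRFI1, a feedback inhibitor of the EGF receptor, was at 1843 to 1916 in the controls and 500 to 826 in the targeting libraries, and NPHS1 (nephrin) was 2.93-fold lower. IGFN1, CSDC2, SLC22A31, ANXA3 and the potassium channel gene KCNF1 were between 2.70-fold and 4.19-fold lower.

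**Figure D2:**
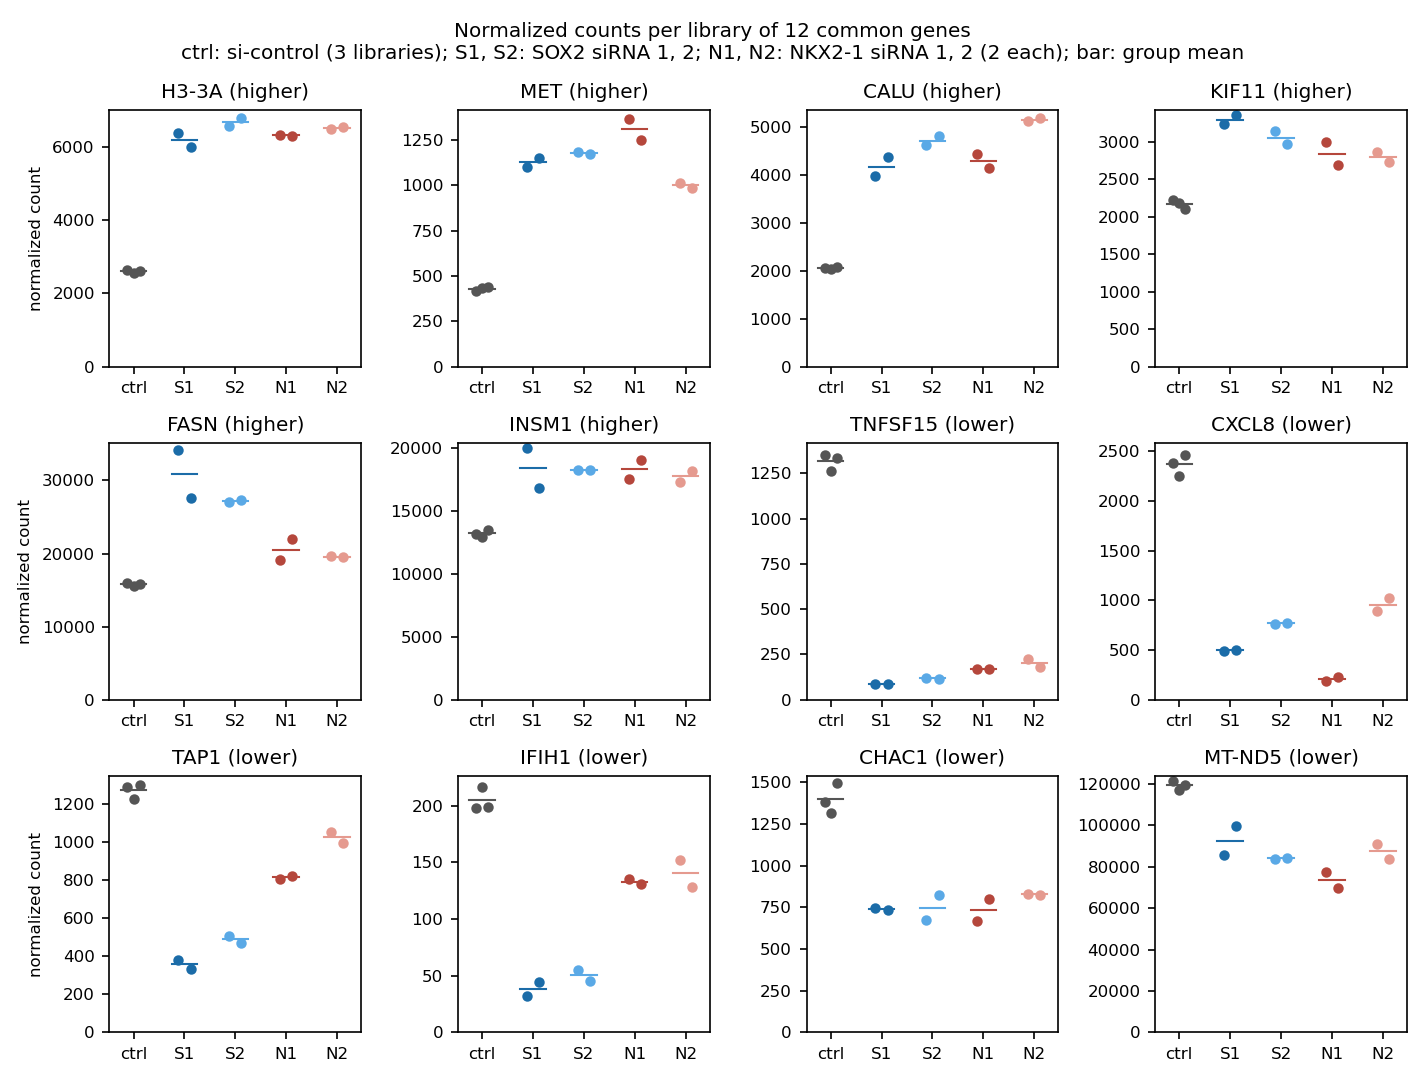
Normalized count (vertical axes, from 0) of 12 common genes in each of the 11 siRNA libraries, by group (ctrl, si-control; S1 and S2, SOX2 siRNAs; N1 and N2, NKX2-1 siRNAs), with bars at group means. H3-3A and CHAC1 are at similar levels with all 4 siRNAs, whereas TAP1 and IFIH1 are lower with the SOX2 than with the NKX2-1 siRNAs and CXCL8 is lowest with NKX2-1 siRNA 1.

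Genes were then grouped by 27 lists, described by counts and by the median difference beside the -0.01 of all genes tested. The lists were chosen with earlier results of these data known, so their shares and ranks are a description only. Of all genes tested 8.21% were higher and 9.39% lower. Inflammatory genes of the NF-kB pathway had the highest share of lower genes: 10 of 16 measured were lower, none was higher, and the median log2 difference was -0.68. In this pathway inhibitors such as NFKBIA hold the transcription factor in the cytoplasm until a receptor signal releases it, and cytokines, chemokines and the pathway's own inhibitors are its targets. Ligands among the lower genes were CXCL8, CXCL2, TNF, TNFSF15, LIF and IL32. Pathway members were NFKB2, RELB, NFKBIA and BIRC3.

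CXCL8 (interleukin-8, chr4:73740569-73743716) had 2382, 2256 and 2468 normalized counts in the controls. It had 486 and 504 with SOX2 siRNA 1, 763 and 769 with SOX2 siRNA 2, 191 and 222 with NKX2-1 siRNA 1, and 893 and 1019 with NKX2-1 siRNA 2. The siRNAs to 1 target were thus unequal, and NKX2-1 siRNA 1 lay below siRNA 2 by 2.21 on the log2 scale (-2.21, SE 0.08, adjusted p = 1.32e-17). BIRC3, a ubiquitin ligase that restrains cell death, was at 74.3 to 106 in the controls and 24.6 to 46.2 in the targeting libraries, and the cytokine gene IL32 at 112 to 141 and 38.3 to 80.6. LIF, a cytokine of the interleukin-6 family, was lower with every siRNA but far more so with those to NKX2-1: 1588 to 1607 in the controls, 863 to 1107 with the SOX2 siRNAs and 271 to 301 with the NKX2-1 siRNAs.

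The 250 bases before the RefSeq start sites (GRCh38.p14) were searched for the kappaB consensus, the site of NF-kB, on both strands. This motif was chosen after the lists were seen. Of 8 lower genes of the list with a RefSeq promoter, 5 held a match, as did 3 of the 5 list genes that were not common genes, against 7.84% of the 11630 genes with a promoter. The windows of BIRC3 and IL32 are shown because they hold the match in genes described above. Capitals mark the matches, which overlap in IL32, and a match is no evidence of binding. BIRC3 lies at chr11:102317265-102317378 (plus strand) and IL32 at chr16:3065284-3065334 (plus strand).

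BIRC3: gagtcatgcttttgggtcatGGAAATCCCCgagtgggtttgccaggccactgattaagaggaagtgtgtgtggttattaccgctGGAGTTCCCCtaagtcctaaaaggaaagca
IL32: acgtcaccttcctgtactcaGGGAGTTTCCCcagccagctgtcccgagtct

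The interferon-stimulated and antigen presentation lists also held more lower than higher genes, and their medians were lowest with the SOX2 siRNAs. Of 27 interferon-stimulated effectors, 11 were lower (IFI6, CMPK2, PARP14, SAMD9L, IFIT1, IFITM2, IFITM3, TRIM21, ISG20, TRIM25 and BST2) and none higher, with a median of -0.52. Of 13 genes of class I antigen presentation, which cut and load peptides onto HLA molecules, 6 were lower and none higher (median -0.46): the peptide transporter genes TAP1 and TAP2, the immunoproteasome gene PSMB9, its activator subunits PSME1 and PSME2, and the peptide trimmer ERAP1. Of 21 RNA sensors and interferon signaling genes, 6 were lower (IFIH1, OAS1, OAS3, IRF1, IRF2 and JAK1) and TYK2 was higher.

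The difference between the targets was large for these genes. TAP1 was at 1288, 1227 and 1298 normalized counts in the controls, 381, 335, 508 and 470 with the SOX2 siRNAs, and 806, 821, 1053 and 997 with the NKX2-1 siRNAs. Both targeting groups were below the controls and did not overlap each other (SOX2 minus NKX2-1 -1.13, SE 0.05, adjusted p = 4.96e-16). IFIH1, the sensor of long double-stranded RNA, was at 198 to 217 in the controls, 32.0 to 54.9 with the SOX2 siRNAs and 128 to 152 with the NKX2-1 siRNAs (-1.63, SE 0.13, adjusted p = 2.46e-11). PSMB9 had 94.8 to 145, 13.5 to 21.5 and 49.4 to 76.4 in the same order (-1.87, SE 0.18, adjusted p = 9.91e-10). Over the lists, 9 of the 11 lower effectors and 6 of the 6 lower class I genes were called lower with the SOX2 than with the NKX2-1 siRNAs. In that direction 28.0% of all 16750 genes and 44.3% of all 1572 lower genes were called. Not every member followed. ISG20, an exonuclease, was called higher with the SOX2 siRNAs (0.44, SE 0.07, adjusted p = 4.68e-06), and TRIM21, a ubiquitin ligase that binds antibodies, showed no detectable difference (0.05, SE 0.10, adjusted p = 0.724).

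The core of the interferon response element, GAAANNGAAA on either strand, was found before the start of 6 of 10 lower effectors and of 7 of 14 effectors that were not common genes, against 3.16% of all genes with a promoter. It was found in 3 of 6 lower class I genes and 4 of 5 others, so that genes of these lists outside the lower group held it as well. The windows of IFITM3, an inhibitor of virus entry (chr11:320866-320932, minus strand), TAP1 (chr6:32853803-32853858, minus strand) and TAP2 (chr6:32838768-32838817, minus strand) are shown with each core in capitals, read in the direction of the gene. The TAP1 matches overlap and lie on the strand opposite to the gene.

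IFITM3: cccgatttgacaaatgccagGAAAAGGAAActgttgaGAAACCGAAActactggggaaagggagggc
TAP1: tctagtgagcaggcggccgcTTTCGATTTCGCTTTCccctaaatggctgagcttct
TAP2: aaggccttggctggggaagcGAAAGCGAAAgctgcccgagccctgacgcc

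In the integrated stress response, phosphorylation of eIF2 raises translation of the factor ATF4. The median of its list was below the control with all 4 siRNAs and more so with those to SOX2. The list medians were -0.36 and -0.43 with SOX2 siRNAs 1 and 2, and -0.15 and -0.17 with NKX2-1 siRNAs 1 and 2, and 10 of the 14 lower genes were called lower with the SOX2 than with the NKX2-1 siRNAs (28.0% of all genes and 44.3% of all lower genes were called so). Of 32 measured, 14 were lower and none higher (median -0.29), among them ATF4 itself, its partner gene ATF3, the feedback genes PPP1R15A and TRIB3, the glutathione-degrading enzyme gene CHAC1, the asparagine synthetase gene ASNS and the cystathionine lyase gene CTH. CHAC1 had 1379, 1316 and 1495 normalized counts in the controls, 745, 737, 673 and 821 with the SOX2 siRNAs, and 669, 800, 832 and 823 with the NKX2-1 siRNAs. CHAC1 was not among those 10, and its targeting groups overlapped (SOX2 minus NKX2-1 -0.07, SE 0.06, adjusted p = 0.358). ATF3 was at 822 to 866 in the controls and 319 to 484 in the targeting libraries, also without a called difference between the targets (adjusted p = 0.0713). PPP1R15A, a phosphatase subunit that acts on eIF2, was 1.63-fold lower and CTH 1.61-fold.

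Cytosolic aminoacyl-tRNA synthetases, which charge tRNAs and are in part targets of ATF4, were lower in 8 of 20 cases and higher in 2 (VARS1 and MARS1), with a median of -0.06. The differences were small: SARS1 was 1.32-fold lower, YARS1 1.33-fold, IARS1 1.19-fold and WARS1 1.17-fold. Of 24 genes of the unfolded protein response of the endoplasmic reticulum, CANX, DNAJB9, HSPA5, PDIA3 and XBP1 were lower, while PDIA4 (a disulfide isomerase, 1.66-fold) and SEL1L (of the degradation machinery, 1.30-fold) were higher. An ATF4 type element, TGATGNAA on either strand, was found in 3 of 11 lower stress response genes and in 2 of 6 lower synthetase genes with a promoter. It was found in 1 of 14 and 1 of 9 of the list genes that were not common genes, and in 2.52% of all. The windows of ATF3 (chr1:212565196-212565243, plus strand), CHAC1 (chr15:40953242-40953289, plus strand) and IARS1 (chr9:92293698-92293730, minus strand) are given with the element in capitals.

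ATF3: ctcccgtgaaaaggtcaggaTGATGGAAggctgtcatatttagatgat
CHAC1: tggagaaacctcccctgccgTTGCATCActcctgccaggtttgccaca
IARS1: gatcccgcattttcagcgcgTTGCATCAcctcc

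Messages encoded by the mitochondrial genome, which carry subunits of the respiratory chain, were lower in 8 of 13 cases and higher in none (median -0.46). MT-ND5 had 121260, 117190 and 119470 normalized counts in the controls, 85471 and 99676 with SOX2 siRNA 1, 83743 and 84415 with SOX2 siRNA 2, 77364 and 69942 with NKX2-1 siRNA 1, and 91172 and 83644 with NKX2-1 siRNA 2. Every targeting library was below every control. MT-ND6 was 1.66-fold lower. Under quantile normalization, which equalizes the top ranks where these messages sit, 3 in place of 8 met the rule. The mitochondrial share of the reads, which these messages make up in part, was lower in the same libraries, as given above, and its part in other differences was not tested.

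Genes of the non-neuroendocrine and mesenchymal list and of the epithelial list were mostly lower where they were common genes. Of 30 non-neuroendocrine and mesenchymal genes, 12 were lower and SNAI2 was higher (median -0.40). MYOF (myoferlin) was at 461 to 491 normalized counts in the controls, 72.7 to 107 with the SOX2 siRNAs and 184 to 225 with the NKX2-1 siRNAs, and the urokinase gene PLAU at 336 to 377 in the controls and 94.8 to 181 in the targeting libraries. COL4A2, a basement membrane collagen, was 1.76-fold lower with no detectable difference between targets (0.00, SE 0.06, adjusted p = 0.969). Of 13 epithelial genes 6 were lower and none higher (median -0.49), namely the keratins KRT8 and KRT18, the claudins CLDN3 and CLDN4, and SPINT1 and PRSS8 of a surface protease system.

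Among 32 neuroendocrine markers 4 were lower and INSM1 was higher (median -0.12). That is 12.5% lower and 3.13% higher, beside 9.39% and 8.21% of all genes tested. INSM1, a zinc finger factor of neuroendocrine cells, was at 13170, 12934 and 13507 normalized counts in the controls and 16836 to 20016 in the targeting libraries, with no detected difference between targets (0.02, SE 0.04, adjusted p = 0.607). PCSK1, the prohormone convertase, was at 44800 to 45112 in the controls, 14705 to 20408 with the SOX2 siRNAs, 11162 and 10569 with NKX2-1 siRNA 1 and 28523 and 28911 with NKX2-1 siRNA 2. The lowest and the highest targeting levels of PCSK1 both came from siRNAs to NKX2-1 (NKX2-1 siRNA 1 minus siRNA 2 -1.40, SE 0.04, adjusted p = 6.66e-21). CALCA, the calcitonin gene, was 1.53-fold lower on average and had its lowest counts with NKX2-1 siRNA 1. Of 16 lineage factors, NFIB and LHX2 were higher and MYCL was lower (12.5% and 6.25%), also near the shares of all genes.

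Early response and hypoxia genes had more lower than higher members. Of 24 AP-1, early response and MAPK feedback genes 7 were lower and none higher (JUN, FOSB, IER2, IER3, KLF6, DUSP4 and DUSP5; median -0.23). IER3 was at 1679 to 1779 normalized counts in the controls and 631 to 1398 in the targeting libraries, and DUSP5, a phosphatase of ERK, at 1085 to 1167 and 436 to 844. Of 29 hypoxia and glycolysis genes 10 were lower and the histone demethylase gene KDM3A was higher (median -0.15). HK2, which starts glycolysis, was at 378 to 427 in the controls and 158 to 315 in the targeting libraries. NDRG1 was at 4437 to 4564 and 1688 to 3788.

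The YAP and Notch lists held common genes in both directions. CCN2, a secreted YAP target, was at 57.4 to 64.6 normalized counts in the controls and 13.4 to 32.7 in the targeting libraries, while TEAD1, the DNA-binding partner of YAP, was 1.39-fold higher. Across the 11 measured genes of that list 3 were higher and 2 lower, though YAP1 itself was near 0. In the Notch list of 23 genes, RBPJ, the DNA-binding factor of the pathway, was at 753 to 849 in the controls and 1193 to 1972 in the targeting libraries, and JAG1 was higher. NOTCH1, HES1, HEY2 and NRARP were lower, NRARP by 2.00-fold. Of 23 p53 targets CDKN1A and SESN1 were higher and GDF15, TNFRSF10B, GADD45A and BTG2 lower. The Notch and the p53 list each had 8.70% higher and 17.4% lower genes, beside 8.21% and 9.39% of all genes tested. These shares rest on few genes.

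Genes of mitosis and of the G2 to M transition had the highest share of higher genes. Of 43 measured, 21 were higher, none was lower, and the median was 0.25. They included the cyclin CCNB1 and its kinase CDK1, the checkpoint genes BUB1, BUB1B and MAD2L1, the anaphase activator CDC20, the condensin genes SMC2, SMC4 and NCAPH, the centromeric histone gene CENPA, the separase gene ESPL1 and the spindle motor KIF11. KIF11 was at 2224, 2175 and 2104 normalized counts in the controls, 3231, 3354, 3139 and 2966 with the SOX2 siRNAs, and 2996, 2683, 2866 and 2721 with the NKX2-1 siRNAs. The differences were small, from 1.21-fold for CENPA to 1.47-fold for ESPL1 among the 4 leading genes, and only 1 of the 21 kept a gap of 0.2 on the log2 scale between the nearest targeting and control libraries. Of the 21 genes, 16 were called higher with the SOX2 than with the NKX2-1 siRNAs and none lower. Of all genes tested 27.9% were called higher, and of all higher genes 38.6%. Without NKX2-1 siRNA 1 replicate 2, the deepest library, 27 of the list met the rule as higher, and leaving a library out can only add genes.

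Of 44 DNA replication genes 9 were higher and GINS4 was lower (median 0.16). E2F2, an activator of S phase genes, was at 933 to 1047 normalized counts in the controls and 1431 to 1943 in the targeting libraries, and the polymerase subunit gene POLD1 at 1448 to 1505 and 1840 to 2599. A CCAAT box was found before 16 of 19 higher and 11 of 18 other mitotic genes with a promoter (41.4% of all genes), and the cell cycle homology core TTTGAA, a site of late cell cycle promoters, before 11 of 19 and 10 of 18 (12.2% of all). Both motifs were searched on either strand, and the core was chosen after the lists were seen. The windows of ESPL1 (chr12:53268231-53268293, plus strand) and KIF11 (chr10:92593057-92593127, plus strand) show the pair in capitals, the CCAAT box first, here as its reverse complement, as is the core in KIF11.

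ESPL1: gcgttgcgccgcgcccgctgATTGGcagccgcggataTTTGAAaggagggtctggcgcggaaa
KIF11: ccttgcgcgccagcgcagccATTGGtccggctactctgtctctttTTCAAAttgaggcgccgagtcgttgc

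Lipid synthesis genes were higher in 7 of 34 cases and lower in 1 (median 0.13). FASN, the fatty acid synthase, was at 15976, 15545 and 15790 normalized counts in the controls, 34177, 27653, 27119 and 27324 with the SOX2 siRNAs and 19134, 21927, 19606 and 19568 with the NKX2-1 siRNAs. It was higher with the SOX2 siRNAs in all 4 libraries against 4 (0.53, SE 0.04, adjusted p = 3.21e-11). INSIG1, the sterol-regulated anchor of SREBP processing, was 1.49-fold higher, LSS (lanosterol synthase) 1.52-fold, and SREBF1, FDPS, IDI1 and EBP were higher too, while TM7SF2, a sterol reductase, was 1.41-fold lower.

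Of 19 NRF2 targets 4 were higher and 2 lower. FTH1, the ferritin heavy chain, was at 6215 to 6422 normalized counts in the controls and 7892 to 13481 in the targeting libraries, and since it has many processed pseudogenes its reads may be divided among copies. Among 15 genes of the small RNA silencing machinery, AGO1, TSN and DGCR8 were higher and none lower. AGO1, an argonaute that holds guide RNAs, was at 1367 to 1420 in the controls, 1944 to 2180 with the SOX2 siRNAs and 1447 to 1548 with the NKX2-1 siRNAs. Of 26 cytosolic ribosomal protein genes 4 were higher and 2 lower (15.4% and 7.69%). Of 13 replication-dependent histone genes, whose messages mostly lack a poly(A) tail, 1 was higher and 2 lower (7.69% and 15.4%). These few genes stand beside 8.21% higher and 9.39% lower of all genes tested.

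**Figure D3:**
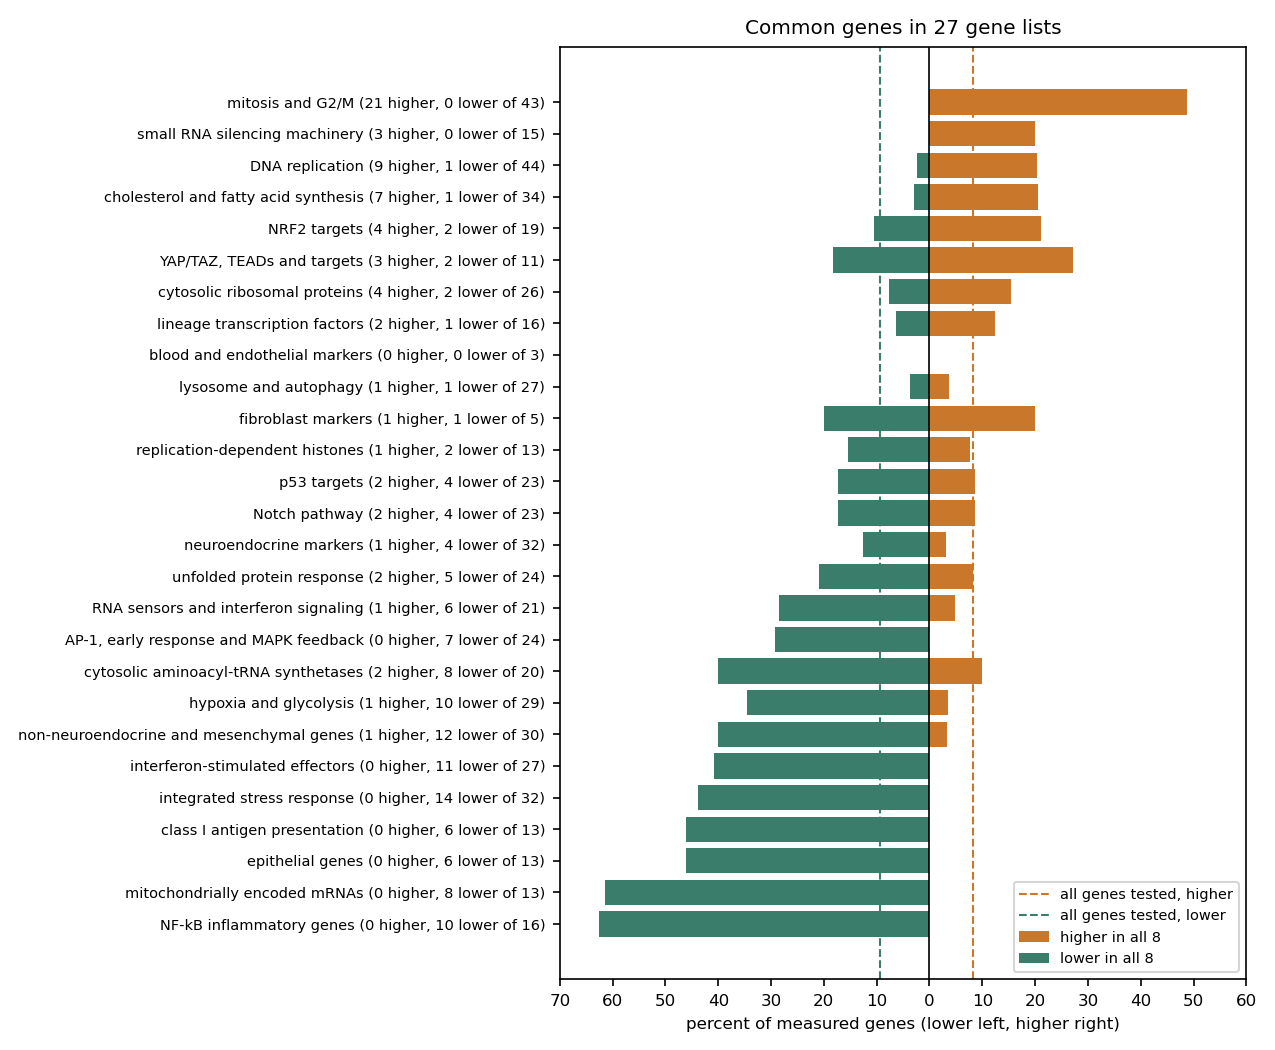
Percent of the measured genes of each of 27 lists that were lower (left of 0) or higher (right of 0) in all 8 targeting libraries, with the counts beside each name. Dashed lines mark the 9.39% lower and 8.21% higher of all genes tested; NF-kB inflammatory genes (10 of 16 lower) and mitosis genes (21 of 43 higher) are at the ends.

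Contrasts among the targeting libraries hold no control library and asked how far the common genes were alike across siRNAs. The same libraries had chosen the members, and a gene can meet the rule with unequal differences. With limma at an adjusted p below 0.05, 531 of the 1376 higher genes were called higher with the SOX2 than with the NKX2-1 siRNAs (38.6%, against 27.9% of all genes tested) and 139 lower (10.1%, against 28.0%). Of the 1572 lower genes, 697 were called lower with the SOX2 siRNAs (44.3%) and 225 higher (14.3%). The called difference was thus more often toward a larger distance from the control with the SOX2 siRNAs. This was not particular to the common genes. Over all genes tested, 1457 and 1265 were at least 2-fold from the control with SOX2 siRNAs 1 and 2, and 666 and 568 with NKX2-1 siRNAs 1 and 2. The shares of all genes called are by direction and not by distance from the control. With equal library totals the higher genes were split 399 to 224 and the lower genes 152 to 828, where the background moved to 22.2% higher and 32.7% lower.

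The largest called differences between targets, among common genes with a mean of at least 50, belonged to genes far from the control with 1 target and nearer to it with the other. CAP2, a regulator of actin, was at 17.5, 29.2 and 25.4 normalized counts in the controls, 233, 227, 288 and 244 with the SOX2 siRNAs and 29.3, 29.8, 29.3 and 29.6 with the NKX2-1 siRNAs (3.02, SE 0.16, adjusted p = 9.89e-15). F2RL3, the thrombin receptor PAR4, was at 2727 to 2761 in the controls, 2169 to 2636 with the SOX2 siRNAs and 456 to 655 with the NKX2-1 siRNAs (2.12, SE 0.05, adjusted p = 6.94e-23). CSF1R, the receptor of colony-stimulating factor 1, was at 91.6 to 102 in the controls, 6.16 to 13.4 with the SOX2 siRNAs and 50.7 to 66.5 with the NKX2-1 siRNAs (-2.54, SE 0.20, adjusted p = 2.19e-11). CAP2 met the rule by less than 1 normalized count with the NKX2-1 siRNAs.

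The remaining genes named for this contrast had the same form. Higher with the SOX2 siRNAs were the chemokine receptor gene ACKR3 (1.53, SE 0.17) and ZNF469 (1.54, SE 0.11), both higher genes, and LIF (1.77, SE 0.05) and CEACAM6 (2.09, SE 0.16), both lower genes. Lower with the SOX2 siRNAs were CDC42EP1, NPR3, SPN, FRG2C and PSMB9, with log2 differences of -2.11 to -1.87. At the other end, 488 higher genes (35.5%), H3-3A among them, and 423 lower genes (26.9%) were called neither between the targets nor between the siRNAs to either target. The share of all genes tested that were called in none of these contrasts was not computed. These counts therefore do not set the common genes apart from the rest.

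Between the siRNAs to 1 target fewer genes were called. Each of these contrasts holds fewer libraries than the contrast between the targets, so its SE is larger (H3-3A: 0.043 against 0.031). The counts of calls therefore do not show that siRNAs to 1 target were more alike. The median absolute log2 difference of the higher genes was 0.14 between targets, 0.11 between SOX2 siRNAs and 0.12 between NKX2-1 siRNAs. For the lower genes it was 0.22, 0.16 and 0.17. SOX2 siRNA 1 against SOX2 siRNA 2 called 188 higher genes up and 88 down (13.7% and 6.40%), and 88 lower genes up and 311 down (5.60% and 19.8%), where 8.08% and 10.4% of all genes were called. NKX2-1 siRNA 1 against siRNA 2 called 205 and 130 higher genes (14.9% and 9.45%) and 117 and 338 lower genes (7.44% and 21.5%), against 11.7% and 14.8% of all. With equal library totals the NKX2-1 counts were 332 and 81, and 205 and 249, where the background turned to 17.2% higher and 10.5% lower, so both splits moved with the scaling as the background did. For both targets siRNA 1 was more often the siRNA farther from the control, and over all genes tested it also had more genes at least 2-fold from the control.

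**Figure D4:**
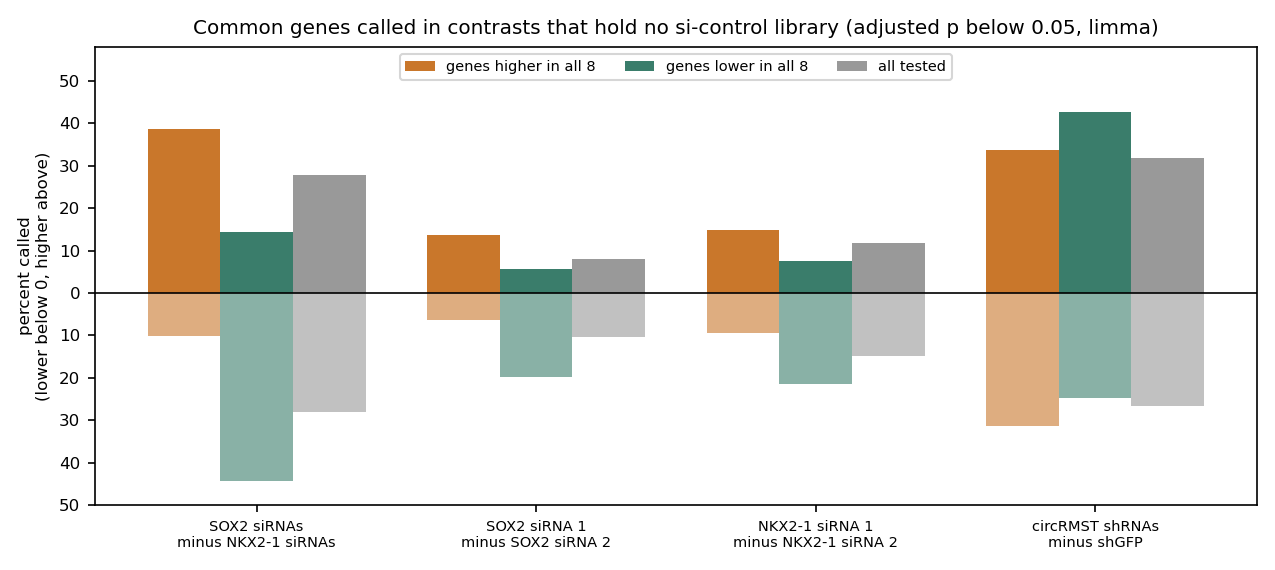
Percent of the higher genes, the lower genes and all genes tested that were called higher (above 0) or lower (below 0) in 4 contrasts that hold no si-control library; in the circRMST contrast, all tested stands for the 15846 genes measured in both tables. In the first 3 contrasts the higher and lower genes lean in opposite directions, and in the circRMST contrast 42.6% of the lower genes were called higher.

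The circRMST knockdown offers other libraries of the same cell line with another control reagent, which the rule did not use. It was tested within its own total RNA table. Of 1343 higher genes measured there, 453 were called higher (33.7%) and 421 lower (31.3%) with the circRMST shRNAs than with shGFP, and of 1515 lower genes 646 were called higher (42.6%) and 374 lower (24.7%). Over all 19068 genes of that table, 27.8% were called higher and 25.9% lower, while the 15846 genes measured in both gave 31.8% and 26.5%. The higher genes were thus near the background in the higher direction and were called lower somewhat more often than the rest (31.3% against 26.5%). The lower genes were called higher more often than the rest. With equal library totals the splits were 280 to 552 for the higher genes and 504 to 484 for the lower genes. The background over all 19068 genes of that table moved from 27.8% and 25.9% to 19.1% and 34.2%. Both splits thus moved toward lower calls, as the background did.

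When each shRNA had to be called alone in the same direction, 310 higher genes were up and 294 down (23.1% and 21.9%), and 501 lower genes were up and 258 down (33.1% and 17.0%), beside 19.6% and 17.4% of all genes of that table and 22.8% and 17.7% of the genes measured in both. The higher genes' share called up was thus near the background, and their share called down was somewhat above it. The split differed with level. Of the 215 lower genes with a mean under 50 in the shRNA table, 17 were called higher and 83 lower, whereas of the 1300 at or above 50, 629 were called higher and 291 lower (48.4% and 22.4%, against 36.7% and 25.6% of all 13408 genes at that level). All 2438 genes under 50 showed the same lean (118 higher, 778 lower).

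The list counts in that table stand beside the 31.8% called higher and 26.5% called lower of the 15846 genes measured in both tables. Of 32 stress response genes 26 were called higher and 1 lower with the circRMST shRNAs. The list median of 0.74 was opposite in sign to the siRNA list median of -0.29, though only 14 of the 32 were lower common genes. CHAC1 was at 268 and 302 normalized counts with shGFP and 486 to 698 with the circRMST shRNAs (1.14, SE 0.11, adjusted p = 1.25e-08). Of 43 mitosis genes 25 were called lower and 7 higher (median -0.21), and KIF11 fell by 0.39 (SE 0.05, adjusted p = 8.43e-07). Of 27 interferon-stimulated effectors 15 were called higher and 4 lower. Of 15 NF-kB inflammatory genes 4 were called higher and 8 lower (median -0.53), with CXCL8 at 459 and 429 with shGFP and 108 to 167 with the shRNAs (-1.73, SE 0.15, adjusted p = 6.57e-10).

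Single leading genes went either way. H3-3A was at 4766 and 4330 normalized counts with shGFP and 2447 to 2961 with the circRMST shRNAs (-0.75, SE 0.06, adjusted p = 1.43e-10), and INSM1 at 5159 and 6024 and 1860 to 2597 (-1.33, SE 0.06, adjusted p = 2.04e-14). Both were higher genes in the siRNA table. TNFRSF9, lower with the siRNAs, was at 63.7 and 74.0 with shGFP and 361 to 439 with the shRNAs (2.57, SE 0.14, adjusted p = 3.75e-13), and SCEL at 203 and 227 and 869 to 1723 (2.49, SE 0.09). TNFSF15 was also higher with the shRNAs (0.73, SE 0.09, adjusted p = 1.86e-07). MET was slightly higher (0.24, SE 0.06), in the direction of its siRNA difference. It was called with circRMST shRNA 1 alone (0.37, limma adjusted p = 4.08e-05) but not with shRNA 2 alone (0.11, adjusted p = 0.168).

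Among common genes with a mean of at least 50 in the siRNA table that were called with each shRNA alone, the 6 largest opposite differences included 3 lower and 3 higher genes. The lower genes were BEST1, a chloride channel, PAPPA, a protease of IGF-binding proteins, and ACOX2, a peroxisomal oxidase. PAPPA was at 87.3 and 104 with shGFP and 1139 to 1682 with the shRNAs (3.81, SE 0.10, adjusted p = 5.93e-19), and BEST1 at 62.6 and 70.9 and 1144 to 1354 (4.20, SE 0.10, adjusted p = 1.77e-19). ACOX2 was 3.27 higher (SE 0.18), while the higher genes SOX15, CRB2 and C1orf127 had differences of -4.23 to -3.88. At the same minimum level, the 6 largest differences in the same direction were in AATK, IGFN1, KCNK6, TMEM191A, CXCL16 and GNG7, all lower in both tables, each with less than 35 normalized counts in every circRMST library.

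Gene type, length and position were not used by the rule. Of members with a RefSeq entry, 91.0% of the higher and 94.6% of the lower genes were protein coding, against 86.4% of all, and the median gene length was 24.7 kb and 36.1 kb, against 27.6 kb. The share of genes meeting the rule was larger at higher levels for higher genes, from 3.12% of those with a mean of 10 to 50 to 17.0% of those above 5000, and for lower genes it was 6.18% and 10.5%. A lower gene had a lower gene as its next tested neighbour in 15.1% of cases, where 9.88% of all such genes were lower, and 19 of those 226 pairs overlapped. For higher genes the values were 9.18% and 8.52%.

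The searched promoter motifs were found in common genes at shares within a few points of those of all genes. Of genes with a RefSeq promoter, 1024 were higher and 1157 lower. The SOX type core CATTGT was found in 9.57% of higher and 9.25% of lower genes, against 7.76% of all, and the NKX2-1 type core CAAGTG in 9.08% and 12.4%, against 10.1%. The TATA box TATAAA was found in 76 of the higher and 116 of the lower genes, against 988 of all 11630, the E2F type core GCGGGAA in 12.8% and 10.2%, against 10.7%, and the ATF4 type element in 1.76% and 4.32%, against 2.52%. Motifs were searched on both strands, and the median GC content of the windows was 65.2%, 64.8% and 64.0% for higher, lower and all.

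The edge of the rule is thin, since it asks only for order. Just inside on the higher side, ECSIT had a lowest targeting count of 1416.6 beside a highest control count of 1416.5, and DLAT 3374.8 beside 3374.4, while DALRD3 and GMPR2 lay just outside. On the lower side SLC20A1 was just inside, at 1624.36 beside 1624.42, and MOAP1 just outside, at 1262.51 beside 1262.49. The median gap between the nearest targeting and control libraries was 0.10 for higher and 0.13 for lower genes on the log2 scale. Asking for a gap of at least 0.2 left 328 higher and 537 lower genes. With equal library totals 1787 genes were higher and 1267 lower.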

How the data were processed

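The authors deposited 2 tables of signal, each value a normalized count of a gene in 1 library, for the siRNA and the shRNA cells. The submitters' processing notes name cutadapt 2.5, STAR 2.5.2b, DESeq2 and hg38. Annotation, counting tool and use of strand are not given in the sources used here, so overlapping, antisense and copied genes are uncertain. Within a column 100% of values were whole multiples of a step (tolerance 0.05 reads), which gave whole reads. Non-human features (38 and 55) and pseudoautosomal copies (11 and 7) were dropped, leaving 34742 siRNA and 41686 shRNA human genes. 10 ChIP-seq samples were not analysed here.

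Common genes were found by the rule where the mean reached 10. Contrasts were fitted with limma 3.58.1 (R 4.3.3, eBayes with trend) on log2(normalized count + 1), with all groups of a table in the fit and two-sided p-values adjusted by Benjamini-Hochberg over all genes tested. edgeR 4.0.16 (quasi-likelihood, TMM) and DESeq2 1.42.0 on recovered reads, pseudocounts, filters, scalings and left-out libraries were alternatives. The fit was tested on simulated data. Replicate pairs differed by more than sampling noise, and unequally. The chi-square per degree of freedom was 5.78 for SOX2 siRNA 1 and 4.65 for NKX2-1 siRNA 1, the groups with a deeper library. It was 1.52 to 2.13 for the controls and the other siRNAs, and 5.36 to 6.02 in the shRNA table. The fit shares its estimate of spread over these unlike groups. Promoters came from RefSeq (GRCh38.p14), 250 bases before each start.

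Members and lists were chosen with earlier results of these data known. Named genes were the 15 higher and 15 lower with the farthest weakest siRNA (mean of at least 50), up to 4 leading members of each list, the 6 with the largest called difference in each direction between targets, the 6 called with each circRMST shRNA in the same and in the opposite direction, genes at the rule's edge, and the targets. ISG20 was given after its values were seen. Other members of lists are named without values, and the kappaB and cell cycle motifs were chosen after the lists were seen.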

Additional observations from a re-analysis of the deposited data

How the results depend on the processing

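The counts of higher and lower genes stayed within 1.5 times the reported ones under the other scalings and filters, but not with a gap of at least 0.2 (328 and 537). A changed filter on the mean can move them in a single direction only. With a library left out they were 1433 to 1732 higher and 1631 to 1882 lower. The rule asks every library for the order, so leaving a library out can only add genes and is no test of stability. Common genes called between the targets numbered 1445 to 1589 with a library left out. Between the SOX2 siRNAs the count of 675 was 427 with no filter on the mean and 406 to 696 with a library left out, lowest without SOX2 siRNA 2 replicate 1 and next without its replicate 2 (436). Between the NKX2-1 siRNAs the count of 790 was 516 to 901, lowest without NKX2-1 siRNA 2 replicate 2, and in the circRMST table the count of 1894 was 1551 to 1829. Fewer samples remain in these fits. Of values for named genes called between the targets, 120 (26 genes) lost the call and RPL4 turned its direction, to -0.058 under quantile normalization, and for circRMST 97 (33 genes) lost the call. Leaving out both deeper libraries (NKX2-1 siRNA 1 replicate 2 and SOX2 siRNA 1 replicate 1), chosen after seeing the data, gave 1631 higher and 1781 lower genes. That too can only add genes. Replicate numbers did not pair the samples: same-numbered deviations correlated by -0.126 to 0.0999 in the shRNA table and mostly by -0.0276 to 0.0246 in the siRNA table. The exception was -0.353 between NKX2-1 siRNA 1 and SOX2 siRNA 1. These groups hold the deeper libraries, which carry different replicate numbers, and what those libraries share was not tested. With a replicate block the counts of calls were 1520, 575, 708 and 1885 in place of 1592, 675, 790 and 1894. Control counts enter every difference, so their 3 libraries limit the rule.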
